A study of Mus musculus with 4 samples.

Results

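Vb3 cells are CD4 T cells whose receptor beta chain uses TRBV26, the segment that serologists call V beta 3. The comparison was between Vb3 cells whose clonotype was found in 2 or more kept cells of the same mouse (expanded) and Vb3 cells whose clonotype was found in 1 (single). Kept cells had 500 or more genes detected and no more than 10% of their UMIs (unique molecular identifiers, 1 per captured transcript) from mitochondrial genes, and had exactly 1 beta chain (TRB) and at most 2 alpha chains (TRA). A clonotype was the same TRB V gene, J gene and CDR3 nucleotide sequence within 1 mouse. Of 19729 cell barcodes 12325 were kept, and 4044 of these were Vb3 cells, in 2872 clonotypes. Expanded clonotypes numbered 307 in mouse 1 (945 cells) and 264 in mouse 2 (798 cells), and single clonotypes 1139 and 1162.

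The cells came from 2 NOD.Rag1null mice, hosts that make no T or B cells of their own, each given CD4 T cells purified from spleens of B6.H2g7 donors, for which the labels give 5000000 cells without saying whether per host or in all. B6.H2g7 mice (B6.NOD-(D17Mit21-D17Mit10)/LtJ, listed at 6 to 8 weeks) carry the NOD major histocompatibility complex on a C57BL/6 background. At day 14 live CD4+ T cell receptor beta+ cells were sorted from each host spleen, and a 5′ expression library and a receptor library were made per host. Both hosts received the same treatment, so expanded and single cells were compared within hosts. The labels mention a pair of donors and do not say whether their cells were pooled, so the tests speak for these 2 hosts only. With the host as a block, they measure how the expanded minus single difference varied between the hosts, beside a spread shared by all genes.

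T cells that descend from 1 precursor share the beta chain junction, so repeated recovery of the same junction in a host marks division of a single precursor or, for junctions that are easily made, separate precursors with the same chain. Vb3 has a place in this system because the NOD genome carries an endogenous mammary tumour virus, Mtv-3, whose superantigen binds MHC class II and V beta 3 chains largely irrespective of the junction, and deletes such cells in the thymus of mice that carry it. B6 donors lack that provirus. CD4 T cells that keep responding to antigen can turn to follicular helper, cytotoxic, exhausted or Foxp3+ regulatory programmes. Some of these lose factors of the resting state such as Tcf7, which follicular cells keep.

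The junctions of the 3 largest Vb3 clonotypes of each mouse are printed as the identity of the clones that carried the most cells. They run 5′ to 3′ from the conserved cysteine codon to the last CDR3 codon. Capitals mark bases that match neither the germline end of Trbv26 (chr6:41227505-41227993, plus strand, GRCm38) nor the germline start of the J segment, that is, D segment and added bases.
Germline Trbv26 end: tgtgccagcagtctgtc
Mouse 1 rank 1: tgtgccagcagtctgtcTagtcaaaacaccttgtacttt
Mouse 1 rank 2: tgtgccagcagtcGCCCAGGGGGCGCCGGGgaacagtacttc
Mouse 1 rank 3: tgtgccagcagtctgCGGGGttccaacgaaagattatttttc
Mouse 2 rank 1: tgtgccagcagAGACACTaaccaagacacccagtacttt
Mouse 2 rank 2: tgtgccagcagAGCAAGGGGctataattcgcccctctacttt
Mouse 2 rank 3: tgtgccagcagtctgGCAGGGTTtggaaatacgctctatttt
The 3 clonotypes of mouse 1 held 36, 24 and 20 cells and used TRBJ2-4, TRBJ2-7 and TRBJ1-4. Those of mouse 2 held 59, 17 and 16 cells and used TRBJ2-5, TRBJ1-6 and TRBJ1-3. The largest clonotype of mouse 1 had 1 base outside the germline ends and the second had 17, so the biggest clones included both nearly germline and heavily trimmed and filled junctions. The most frequent TRA chain of the largest clonotype of mouse 1 was present in 88.2% of the 34 cells with a TRA, among 7 distinct chains, whereas all 59 cells of the largest clonotype of mouse 2 had the same TRA.

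In mouse 1, 45.3% of Vb3 cells were in expanded clonotypes (exact 95% Clopper-Pearson interval 43.2 to 47.5) and in mouse 2 40.7% (38.5 to 42.9). Most expanded clonotypes were pairs. Clonotypes of exactly 2 cells made up 61.2% of the expanded ones in mouse 1 and 68.6% in mouse 2, and 35 and 23 clonotypes held 5 or more cells. Kept cells with other V segments were in expanded clonotypes more often, 67.9% and 67.5%, and their clonotypes were expanded at 27.0% and 24.7% against 21.2% and 18.5% for Vb3. These shares come from 3909 and 4372 other cells against 2084 and 1960 Vb3 cells. They depend on the number of cells, and the other cells were not drawn to a like number. The V beta 20 cells among the others were at 50.6% of 959 cells and 45.5% of 725 cells. The draws of 1000 Vb3 cells per mouse given below are nearer to these numbers. Whether a lower share was particular to Vb3 was not tested. Of the 2653 and 2949 other cells in expanded clonotypes, 2067 and 1814 were in clonotypes no larger than the largest Vb3 clonotype. Intervals cover counting error only. A single clonotype is one seen in 1 kept cell, and in draws of 1000 Vb3 cells per mouse the shares of cells in expanded clonotypes were 33.8% and 27.4%. Of the single cells, 28 in mouse 1 (2.46%) and 17 in mouse 2 (1.46%) had their junction in a further barcode with receptor contigs that was not kept.

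**Figure D1:**
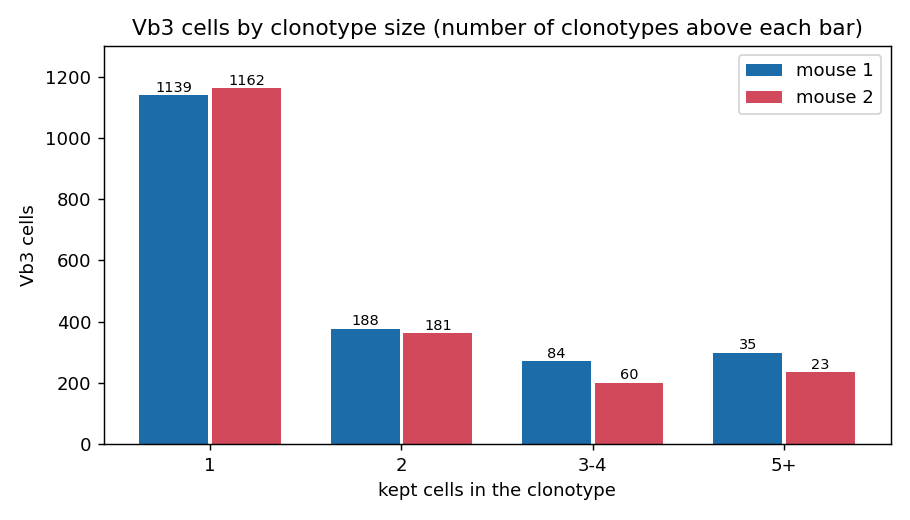
Vb3 cells (y axis) by the number of kept cells in their clonotype (x axis) in mouse 1 (blue) and mouse 2 (red), with the number of clonotypes above each bar. Single cells were the largest class in both mice, and the 35 and 23 clonotypes of 5 or more cells held 298 and 235 cells.

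The features of the junction differed little between the classes. The mean CDR3 length was 41.7 bases in expanded and 41.5 in single clonotypes of mouse 1, and 41.5 in both of mouse 2, with standard deviations over clonotypes between 3.00 and 3.28. Bases outside the germline ends averaged 9.49 and 9.39 in expanded and 9.33 and 9.30 in single clonotypes. TRBJ2 segments were used by 48.2% and 48.9% of expanded and 50.3% and 51.9% of single clonotypes. With 2 mice an exact permutation test that keeps the classes paired within mice cannot go below p = 0.5, so none was run. The same CDR3 nucleotide sequence with the same genes was present in the other mouse for 6 (1.95%) and 7 (2.65%) expanded clonotypes and for 23 (2.02%) and 22 (1.89%) single ones.

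The alpha chain gave a check of shared descent that the definition did not use. All cells with a TRA shared a chain in 270 of 297 expanded clonotypes of mouse 1 with at least 2 such cells (90.9%) and in 241 of 256 of mouse 2 (94.1%). The other 27 and 15 clonotypes had means of 6.96 and 8.20 bases outside the germline ends, against 9.68 and 9.51 where a TRA was shared. Their CDR3 amino acid sequence was also found in the other mouse in 33.3% and 26.7% of cases, against 8.15% and 11.2%. These beta junctions held fewer non-germline bases, and a share of what counts as expanded by the beta chain alone carried more than 1 alpha chain.

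Gene expression was summed over the cells of each class and mouse, giving 6063745 and 5566456 UMIs for expanded and 6597405 and 8001815 for single clonotypes. Levels are given as UMIs per 1000000 of that sum (CPM), always mouse 1 first and mouse 2 second. In such sums, more cells that express a gene and more transcripts per cell cannot be told apart. Differences are expanded minus single on the log2 scale with their standard error, from edgeR's quasi-likelihood test with the mouse as a block and Benjamini-Hochberg adjustment over all tested genes. Median UMIs per cell were close, 5502 and 6187 in expanded against 5365 and 6320 in single, while cells above 15000 UMIs made up 4.76% and 5.26% against 1.76% and 2.50%. CD4 and T cell receptor constant genes summed to 6193 and 6352 CPM in expanded and 6372 and 6039 in single cells, and none of these 7 genes was called. B cell markers summed to 135 and 168 against 97.5 and 125 CPM with Fcer2a at 0, CD8 T cell markers to 7.72 to 9.57 CPM with Cd8a at 0, NK cell markers to 109.8 and 66.3 against 51.7 and 54.1 with Ncr1, Klra4 and Klra8 at 0, and macrophage and monocyte markers to 65.5 and 64.1 against 56.8 and 43.5 with none of 12 at 0. Dendritic cell markers summed to 81.3 and 26.4 against 28.7 and 20.4 CPM with 4 of 10 at 0, neutrophil markers to at most 6.82, and gamma delta and invariant NKT markers to 15.9 to 23.6. The 2 libraries shared 58 kept barcodes, 9 of them Vb3 in both, and none with the same clonotype.

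Of 11305 genes tested, 1267 (11.2%) passed an adjusted p of 0.05, with 756 higher (6.69%) and 511 lower (4.52%) in expanded Vb3 cells. The direction was the same in both mice for 1263 of them, which the call itself largely fixes, because the blocked test passes genes whose difference is alike in both mice. The median difference over all tested genes was near 0. When each clonotype gave 1 cell, drawn once at random, 229 of 10745 genes passed (2.13%), 120 higher (1.12%) and 109 lower (1.01%). Of these, 226 were also called over all cells, each in the same direction. Both fits held the same single cells, and the drawn expanded cells were part of the full class, so such overlap is largely built in. Dropping the block left 96 calls (0.849%, of which 0.487% higher and 0.363% lower), and DESeq2 with the block made 287. The fit had 1 residual degree of freedom beside 19.7 prior degrees of freedom borrowed across genes, so the counts rest on the spread shared by all genes. In the list counts that follow, the share over all genes is the background.

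Ccl5, the chemokine RANTES made by memory and cytotoxic T cells (chr11:83525778-83530518, minus strand, GRCm38), was at 11705 and 9175 CPM in expanded and 5059 and 3964 CPM in single clonotypes (log2 difference 1.21 ± 0.02, adjusted p = 8.82e-22, higher in 2 of 2 mice). The 2 classes did not overlap, and with 1 cell per clonotype the difference was 0.92 (adjusted p = 6.60e-08). Nkg7, a cytotoxic granule protein, was at 1540 and 1497 against 834 and 740.1 CPM (log2 difference 0.95 ± 0.04, adjusted p = 7.33e-14). Granzyme K (Gzmk) was at 704 and 429 against 308 and 246 CPM (log2 difference 1.00 ± 0.06, adjusted p = 4.63e-10), granzyme B (Gzmb) at 261 and 257 against 109 and 192 CPM (log2 difference 0.81 ± 0.11, adjusted p = 1.15e-05) and perforin (Prf1), which opens the target membrane, at 32.2 and 26.9 against 12.6 and 13 CPM (log2 difference 1.20 ± 0.14, adjusted p = 3.47e-06). All 4 remained called with 1 cell per clonotype. Of 14 tested genes on the cytotoxic and NK receptor list, 6 rose and 2 fell, with a median difference of 0.21. Without the largest clonotype of each mouse, where 7.88% of all genes rose and 5.09% fell, 6 rose and 5 fell. In that fit the prior degrees of freedom were infinite, so every gene was tested against the shared spread alone. The 2 that fell included the receptor gene Klrk1, at 0.66 and 4.49 against 2.73 and 9.87 CPM (log2 difference -1.32 ± 0.33, adjusted p = 0.00853). In mouse 1 its expanded value was 4 UMIs of 1 cell, and with 1 cell per clonotype it was not called, at -1.85 (adjusted p = 0.169).

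The chemokines Ccl3 and Ccl4, which draw T cells and monocytes, were at 229 and 474 against 179.6 and 62.6 CPM and 1170 and 1247 against 660.3 and 284 CPM. Ccl3 rose (log2 difference 1.57 ± 0.29, adjusted p = 5.96e-04), mostly in mouse 2, where the largest contribution of a clonotype was 39.1% of its UMIs. Ccl4 rose as well (log2 difference 1.46 ± 0.15, adjusted p = 5.20e-07). Neither was called with 1 cell per clonotype, at 0.96 (adjusted p = 0.449) and 0.76 (adjusted p = 0.453). Among 16 Th1 genes 9 rose and 1 fell, with a median of 0.29, and without the largest clonotype of each mouse 8 rose and 5 fell. Eomes, a T-box factor of cytotoxic cells that is also on the NK marker list above, rose (92.8 and 50.7 against 36.8 and 37.9 CPM, log2 difference 0.91 ± 0.13, adjusted p = 3.79e-05), as did Runx3 (69.3 and 59.3 against 40.5 and 40.5 CPM, log2 difference 0.66 ± 0.09, adjusted p = 1.65e-05). Ifng, the main Th1 cytokine, was at 130.3 and 112 against 118 and 73.4 CPM (log2 difference 0.36 ± 0.08, adjusted p = 0.00463) but at -0.05 (adjusted p = 0.915) with 1 cell per clonotype. Cx3cr1, a receptor of terminally differentiated effectors, was at 14.8 and 35.6 against 11.8 and 11.2 CPM (log2 difference 1.11 ± 0.21, adjusted p = 7.95e-04). In mouse 2 its largest clonotype gave 64.1% of the Cx3cr1 UMIs of expanded cells, and without the largest clonotype of each mouse the difference was 0.32 (adjusted p = 0.300).

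Of 15 tested inhibitory receptor and exhaustion genes 10 rose and 1 fell, with a median of 0.48, and 6 rose with 1 cell per clonotype. Among the 10 was Lag3, an MHC class II receptor (376 and 365 against 260.0 and 274 CPM, log2 difference 0.48 ± 0.05, adjusted p = 6.59e-07). Tnfrsf9, the costimulatory receptor 4-1BB, is on the list of receptor signal genes below and rose as well (88.2 and 138 against 56.1 and 84.7 CPM, log2 difference 0.69 ± 0.07, adjusted p = 3.63e-07). The repressor Prdm1 was at 49.5 and 51.7 against 25.5 and 31 CPM (log2 difference 0.84 ± 0.10, adjusted p = 3.80e-06) and the ectonucleotidase Entpd1 at 61.3 and 63.6 against 41.7 and 43.4 CPM (log2 difference 0.56 ± 0.09, adjusted p = 8.38e-05). Pdcd1, the PD-1 receptor, was at 309 and 319 CPM in expanded and 313 and 269 CPM in single clonotypes. The groups overlapped and it did not pass (log2 difference 0.12 ± 0.06, adjusted p = 0.23).

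All 24 tested genes of the proliferation list rose, with a median difference of 1.02. Counting 1 cell per clonotype, 15 of 24 rose and none fell (median 0.70). Ube2c, the mitotic ubiquitin carrier (chr2:164769898-164778822, plus strand, GRCm38), was at 190.0 and 102 CPM in expanded and 60.0 and 30.9 CPM in single clonotypes (log2 difference 1.69 ± 0.07, adjusted p = 5.56e-13), so the lowest expanded value lay above the highest single one. Mki67 was at 174 and 99.3 against 92.5 and 50.9 CPM (log2 difference 0.94 ± 0.07, adjusted p = 3.95e-09) and Top2a, the topoisomerase of dividing cells, at 182 and 120.0 against 91.2 and 57.7 CPM (log2 difference 1.02 ± 0.07, adjusted p = 6.88e-10). The mitotic genes Plk1, Cenpf, Ckap2l, Hmmr and Aurkb and the histone Hist1h2ak were also among the 12 largest increases, with differences of 1.62, 1.57, 1.56, 1.54, 1.44 and 1.37. Cells with a UMI of a cycling marker made up 37.7% and 34.1% of expanded and 27.9% and 28.1% of single cells. Without cells above 15000 UMIs 16 of 24 rose, where 5.79% of all genes passed, 3.32% higher and 2.47% lower. Among clonotypes of exactly 2 cells 4 of 24 rose, and without the mouse block 3 of 24 rose. The difference of Ube2c was 0.83 without cells above 15000 UMIs and 0.89 among clonotypes of exactly 2 cells, called in both. Of 14 glycolysis genes 6 rose and none fell (median 0.22), led by Gapdh (3163 and 2741 against 2555 and 2357 CPM, log2 difference 0.26 ± 0.03, adjusted p = 3.61e-07) and Ldha (906 and 828 against 742 and 674 CPM, log2 difference 0.29 ± 0.04, adjusted p = 5.21e-06).

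Foxp3, the lineage factor (chrX:7573644-7595245, plus strand, GRCm38), was at 76.7 and 127 CPM in expanded and 42.3 and 64.2 CPM in single clonotypes (log2 difference 0.93 ± 0.08, adjusted p = 2.56e-08). Within each mouse expanded cells were higher, while the single cells of mouse 2 came close to the expanded cells of mouse 1. With 1 cell per clonotype the difference was 0.67 (adjusted p = 0.0179). Of 14 tested regulatory T cell genes 10 rose and 2 fell (median 0.38), and 4 rose and 1 fell with 1 cell per clonotype. Ikzf2, the Helios factor, was at 392 and 423 against 292 and 291 CPM (log2 difference 0.48 ± 0.05, adjusted p = 3.84e-07), Ctla4 at 231 and 334 against 201 and 268 CPM (log2 difference 0.26 ± 0.05, adjusted p = 0.00118), Tnfrsf4 (OX40) at 391 and 535 against 324 and 384 CPM (log2 difference 0.38 ± 0.05, adjusted p = 1.30e-05) and Lrrc32, which anchors latent TGF-beta on regulatory cells, at 5.77 and 8.44 against 1.52 and 4.12 CPM (log2 difference 1.34 ± 0.30, adjusted p = 0.0042). The high-affinity interleukin 2 receptor chain Il2ra was at 21.1 and 37.2 against 17.6 and 28.2 CPM and did not pass (log2 difference 0.35 ± 0.12, adjusted p = 0.0741), and Nrp1, a marker of thymic regulatory cells that other T cells also make, fell (55.6 and 72.6 against 92.8 and 95.2 CPM, log2 difference -0.55 ± 0.08, adjusted p = 5.85e-05). Ctla4, Lrrc32 and Nrp1 were not called with 1 cell per clonotype, at 0.27 (adjusted p = 0.121), 1.13 (adjusted p = 0.324) and -0.44 (adjusted p = 0.0559). When cells with a Foxp3 UMI were left out, 1 of 12 rose and 3 fell (7.20% and 4.23% of all genes), and Il2ra was lower in expanded cells (log2 difference -1.49, adjusted p = 0.00358).

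Il10, an anti-inflammatory cytokine made by regulatory and effector cells, was at 43.7 and 37 against 22.9 and 23.1 CPM (log2 difference 0.81 ± 0.11, adjusted p = 2.62e-05). Without cells holding a Foxp3 UMI its difference was 1.30, and with 1 cell per clonotype -0.05 (adjusted p = 0.975). The chemokine receptor Ccr8 was at 32.8 and 50.1 against 18.5 and 32 CPM (log2 difference 0.72 ± 0.11, adjusted p = 6.48e-05) and the growth factor Areg at 15.8 and 19 against 11.2 and 11.5 CPM (log2 difference 0.62 ± 0.17, adjusted p = 0.018). Both are on the Th2 list, of which 3 of 5 tested genes rose, and none with 1 cell per clonotype. None of 7 tested Th17 genes passed in edgeR or DESeq2, and 2 had an unadjusted p under 0.05 in edgeR. The 2 with the smallest p were Rora (119.6 and 105 against 115 and 82.7 CPM, adjusted p = 0.0911) and Ccr6 (2.31 and 8.08 against 1.36 and 4.62 CPM, adjusted p = 0.129).

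**Figure D2:**
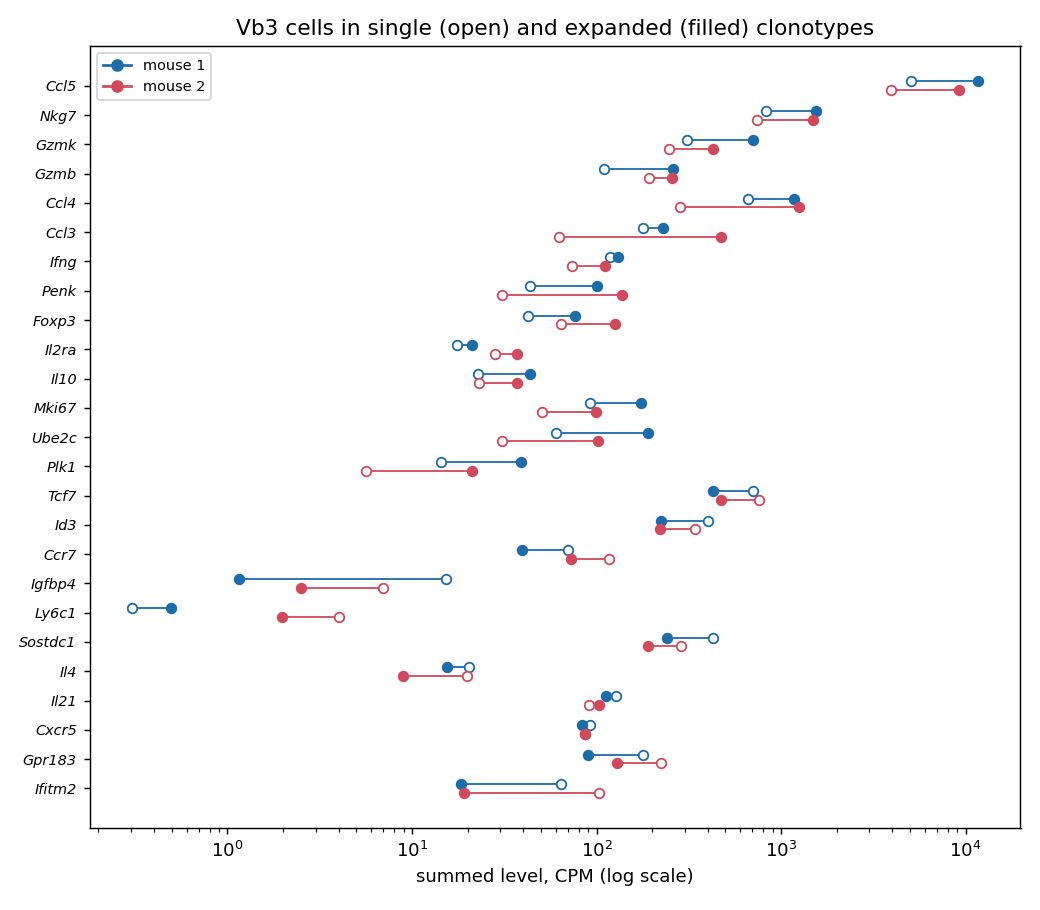
Summed level in CPM (log scale, x axis) of named genes (y axis) in single (open) and expanded (filled) Vb3 clonotypes of mouse 1 (blue) and mouse 2 (red). Ccl5, Foxp3 and Ube2c had filled points to the right of open ones in both mice, and Tcf7, Id3 and Sostdc1 to the left.

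Genes of resting and naive cells were lower in expanded clonotypes. Tcf7, the TCF-1 factor of naive, memory and follicular cells (chr11:52252371-52283014, minus strand, GRCm38), was at 429 and 473 CPM in expanded and 707 and 763 CPM in single clonotypes (log2 difference -0.70 ± 0.04, adjusted p = 1.07e-10), with all expanded values below all single ones. With 1 cell per clonotype the difference was -0.41 (adjusted p = 7.89e-04). Of 14 tested naive and quiescence genes 10 fell and none rose (median -0.54), and 3 fell with 1 cell per clonotype. The lymph node homing receptor Ccr7 was at 39.4 and 73.1 against 70.0 and 117 CPM (log2 difference -0.74 ± 0.08, adjusted p = 6.60e-07, and -0.21 (adjusted p = 0.612) with 1 cell per clonotype), the interleukin 7 receptor Il7r at 70.3 and 128 against 135 and 203 CPM (log2 difference -0.79 ± 0.07, adjusted p = 7.54e-08), and the genome organiser Satb1 and the factor Lef1 had differences of -0.41 and -0.31. Satb1 and Lef1 were not called with 1 cell per clonotype, at -0.33 (adjusted p = 0.121) and -0.12 (adjusted p = 0.632). S1pr1 and Klf2, which serve exit from lymphoid tissue, were at 97.6 and 109 against 106 and 128 CPM and 469.5 and 528 against 516 and 502 CPM, with adjusted p of 0.0948 and 0.796. Bcl2, a survival factor, was at 108 and 131 against 182 and 190.0 CPM (log2 difference -0.64 ± 0.06, adjusted p = 3.63e-07). Of 16 apoptosis and survival genes 4 rose and 1 fell.

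Igfbp4 and Dapl1, transcripts of naive-like cells, were rare in both classes. Igfbp4 was at 1.15 and 2.52 CPM in expanded and 15.3 and 7 CPM in single clonotypes (log2 difference -2.58 ± 0.36, adjusted p = 2.58e-05), which came from 7 and 9 cells with a UMI in expanded and 17 and 19 cells in single clonotypes. Dapl1 was at 1.15 and 0.359 against 3.79 and 5.25 CPM (log2 difference -2.52 ± 0.48, adjusted p = 8.22e-04), and with 1 cell per clonotype it was not called, at -1.70 (adjusted p = 0.375). Over all cells of mouse 2 Dapl1 had 2 UMIs against 42, a ratio of single to expanded of 14.6 with an exact 95% counting interval of 3.80 to 125. Ly6c1 was at 0.495 and 1.98 against 0.303 and 4 CPM and did not pass (adjusted p = 0.416).

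Follicular helper genes and helper ligands were mostly lower or did not pass. Of 18 tested follicular helper genes 8 fell and 1 rose (median -0.11), and 3 fell with 1 cell per clonotype. Id3, an inhibitor of E proteins (chr4:136143497-136145755, plus strand, GRCm38), was at 224 and 220.1 CPM in expanded and 402 and 343 CPM in single clonotypes (log2 difference -0.74 ± 0.05, adjusted p = 4.88e-09) and Sostdc1, a secreted BMP and Wnt antagonist made by follicular helper cells, at 241 and 190.4 CPM in expanded and 427 and 286 CPM in single clonotypes (log2 difference -0.71 ± 0.06, adjusted p = 1.72e-08). For both, every expanded value lay below every single value, and both stayed called with 1 cell per clonotype. The signalling lymphocyte receptor Slamf6 was at 270.5 and 303 against 391 and 419 CPM (log2 difference -0.50 ± 0.05, adjusted p = 2.16e-07) and the lineage factor Bcl6 at 40.7 and 42.2 against 53.5 and 49.7 CPM (log2 difference -0.31 ± 0.09, adjusted p = 0.0281). Bcl6 was not called with 1 cell per clonotype, at -0.28 (adjusted p = 0.459). Il21, the main follicular helper cytokine, was at 113 and 104 against 127 and 90.6 CPM and Icos, their costimulatory receptor, at 366 and 427 against 409.7 and 406 CPM. Neither passed (adjusted p = 0.97 and 0.696).

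Of 12 tested helper cytokines and ligands 8 fell and 2 rose (median -0.41), and 3 fell with 1 cell per clonotype. The TNF family ligands Tnfsf8 (CD30 ligand), Tnfsf11 (RANKL) and Cd40lg, which helper cells use to reach B and dendritic cells, were at 212 and 241 against 361 and 369 CPM, 84.9 and 75.1 against 126 and 115 CPM and 112 and 121 against 157 and 152 CPM. Their differences were -0.69, -0.59 and -0.40 (adjusted p = 8.78e-09, 1.80e-06 and 1.12e-04), and with 1 cell per clonotype Cd40lg was not called, at -0.31 (adjusted p = 0.102). Tnf fell too (51.1 and 59.5 against 71.4 and 71.1 CPM, log2 difference -0.36 ± 0.08, adjusted p = 0.00484). Il4 was at 15.5 and 8.98 against 20.3 and 19.7 CPM (log2 difference -0.72 ± 0.18, adjusted p = 0.00918), called over all cells and not with 1 cell per clonotype (-0.47 (adjusted p = 0.669)). Il2 was near the detection limit at 1.98 and 1.62 against 1.82 and 3.5 CPM and did not pass (adjusted p = 0.51). Spp1 and Xcl1 were also low, at 3.79 and 9.88 against 2.58 and 0.875 CPM (adjusted p = 0.00362) and 4.62 and 14 against 3.94 and 8.75 CPM (adjusted p = 0.166). In mouse 2 a single clonotype gave 78.2% of the Spp1 UMIs of expanded cells, and without the largest clonotype of each mouse its difference was 0.89 (adjusted p = 0.188) in place of 2.00.

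Of 16 tested receptor signal genes 5 rose and 1 fell (median 0.09), among them Cd5, a brake that follows receptor signal strength, at 497 and 543 against 373 and 385 CPM (log2 difference 0.46 ± 0.04, adjusted p = 2.75e-07). The immediate targets Egr2 and Nr4a1 were at 51.5 and 60.4 against 44.1 and 41.1 CPM and 66.6 and 61.3 against 50.3 and 52.5 CPM (adjusted p = 0.00681 and 0.016), and with 1 cell per clonotype they were not called, at -0.10 (adjusted p = 0.903) and -0.18 (adjusted p = 0.773). Of 14 anergy genes 2 rose and 3 fell, including Izumo1r, the folate receptor 4 of anergic and regulatory cells (714 and 829 against 965 and 1022 CPM, log2 difference -0.37 ± 0.04, adjusted p = 5.02e-07). The activation marker Cd44 fell (89.4 and 99 against 136 and 129.8 CPM, log2 difference -0.49 ± 0.07, adjusted p = 2.43e-05), and it was not called with 1 cell per clonotype, at -0.33 (adjusted p = 0.0903). Of 21 homing receptors 7 rose and 3 fell. Of 18 interferon response genes 3 rose, with Gbp4 (117 and 109 against 93.8 and 94.7 CPM, adjusted p = 0.00987) and Zbp1 (132 and 122 against 110.2 and 103 CPM, adjusted p = 0.0101) at the smallest p. Of 15 dissociation stress genes 4 rose and 2 fell, with Hspa1a at 51.5 and 40.1 against 84 and 62.2 CPM (adjusted p = 5.65e-06) and Ier3 at 38.1 and 34.5 against 24.4 and 20.4 CPM (adjusted p = 1.62e-04). Gbp4, Zbp1, Hspa1a and Ier3 were not called with 1 cell per clonotype (adjusted p = 0.277, 0.378, 0.181 and 0.0876).

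Penk, which encodes the opioid precursor proenkephalin, had the largest increase among genes at 20 CPM or more in a class mean whose difference had the same sign in both mice. It was at 101 and 137 CPM in expanded and 43.4 and 30.6 CPM in single clonotypes (log2 difference 1.70 ± 0.13, adjusted p = 8.22e-09) and at 1.78 (adjusted p = 5.03e-08) with 1 cell per clonotype. Its UMIs came from 61 and 47 cells of 42 and 36 expanded clonotypes and from 47 and 51 single cells. Gcg, the proglucagon gene, was at 289 and 150.2 CPM in expanded and 101 and 53.6 CPM in single clonotypes (log2 difference 1.50 ± 0.06, adjusted p = 5.56e-13), from 97 and 62 expanded and 48 and 35 single cells, and at 1.09 (adjusted p = 1.61e-05) with 1 cell per clonotype. Both were still higher when cells with a cycling UMI were left out, by 1.33 and 1.46. H2-Aa, an MHC class II chain of antigen-presenting cells, was at 30.5 and 10.1 against 8.94 and 5.25 CPM (log2 difference 1.46 ± 0.20, adjusted p = 2.51e-05). One cell of mouse 1 held 74.6% of its 185 expanded UMIs, and with 1 cell per clonotype it was not called (0.66 (adjusted p = 0.496)). The haemoglobin gene Hbb-bs was at 2.97 and 105 against 4.4 and 3.87 CPM (log2 difference 3.69 ± 0.42, adjusted p = 1.91e-06), 94.0% of its 582 UMIs in the expanded cells of mouse 2 being in 1 cell. Its difference in mouse 1 alone was -0.44 after adding 1 CPM, and erythroid and platelet markers as a list followed it, at 5.11 and 153 against 7.73 and 9.25 CPM.

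Ifitm1, an interferon-induced transmembrane gene of a family that holds back virus entry, had the largest decrease under the same rule. It was at 10.4 and 0.359 CPM in expanded and 80.6 and 239 CPM in single clonotypes (log2 difference -4.75 ± 0.34, adjusted p = 4.56e-09). Its UMIs came from 22 and 34 single cells with 532 and 1915 UMIs, against 11 and 2 expanded cells with 63 and 2 UMIs, 73.0% of the 63 in 1 cell. The ratio of single to expanded in mouse 2 was 666 with an exact 95% counting interval of 184 to 5504. Of the same family, Ifitm2 was at 18.5 and 19 against 64.1 and 103 CPM (log2 difference -2.14 ± 0.12, adjusted p = 4.85e-11) and Ifitm3 at 24.9 and 13.7 against 34.7 and 46.7 CPM (log2 difference -1.07 ± 0.18, adjusted p = 1.96e-04). Other genes among the 12 largest decreases were Gpr183, the oxysterol receptor that guides cells to the follicle border (90.2 and 129 against 178 and 225 CPM, log2 difference -0.88 ± 0.06, adjusted p = 3.95e-09), and Pik3ip1, an inhibitor of PI3 kinase (12.7 and 16 against 22.4 and 31.1 CPM, log2 difference -0.90 ± 0.14, adjusted p = 1.08e-04). The ganglioside synthase St8sia1, Fbn2, Synpo, Scml4, Chn2 and the transcripts A330093E20Rik and B630019A10Rik had differences of -1.09, -1.14, -0.99, -0.85, -0.84, -2.58 and -1.09. Pik3ip1, St8sia1 and Synpo were not called with 1 cell per clonotype (adjusted p = 0.449, 0.229 and 0.0811).

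Levels were also read by clonotype size, in classes of 1, 2, 3 to 4 and 5 or more cells. Tcf7 was at 707, 607, 484 and 222 CPM in mouse 1 and 763, 656, 429 and 279 CPM in mouse 2, a decline at each step in both mice. Id3 was at 402, 305, 310.1 and 86.7 CPM and 343, 291, 217 and 133 CPM. Ccl5 was at 5059, 10302, 10309 and 14040 CPM and 3964, 7138, 5144 and 15000 CPM, so its highest level was in the class of 5 or more in both mice, with no ordered rise between classes 2 and 3 to 4. Gpr183 was at 178, 121, 106 and 49.3 CPM and 225, 164, 132 and 82.1 CPM, again lower at each step. Mki67 was at 92.5, 139, 145 and 228 CPM and 50.9, 42.5, 156 and 125 CPM, where pairs of mouse 2 were not above single cells. Foxp3 was at 42.3, 48.1, 48.5 and 124 CPM and 64.2, 106, 161 and 126 CPM: in mouse 1 only the class of 5 or more stood apart, and in mouse 2 every expanded class was above single cells. Penk was at 43.4, 172, 47.9 and 71.7 CPM and 30.6, 147, 197 and 76 CPM, highest in pairs or in the 3 to 4 class. Pairs against single cells gave 95 called genes of 10819 (0.878%; 42 or 0.388% higher and 53 or 0.490% lower), and clonotypes of 3 or more gave 1675 of 11018 (15.2%; 9.31% higher and 5.89% lower).

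**Figure D3:**
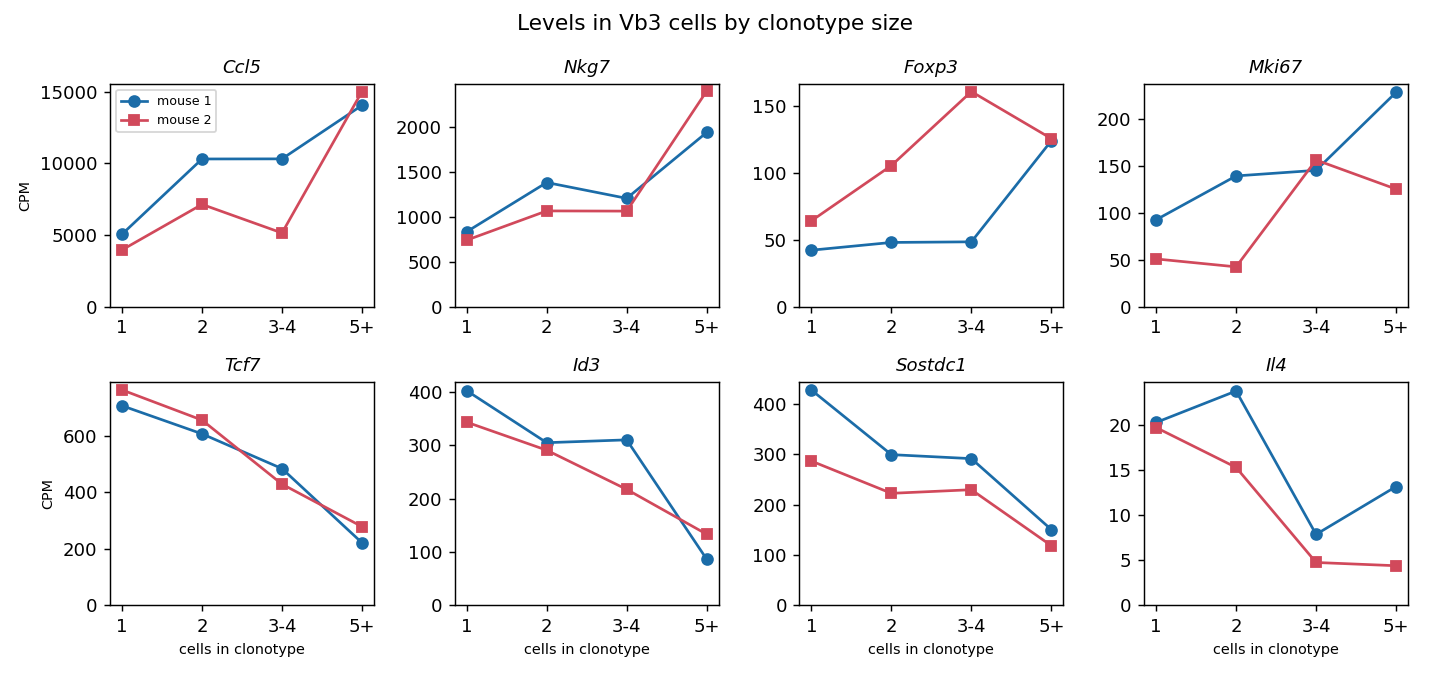
Level in CPM (y axis, from 0) by number of kept cells in the clonotype (x axis) for 8 genes in mouse 1 (blue) and mouse 2 (red). Tcf7 fell at each step in both mice, and Ccl5 was highest in clonotypes of 5 or more cells.

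The 3 largest clonotypes of mouse 1 had 22098 CPM (21550 to 22655), 22243 CPM (21551 to 22951) and 815 CPM (702 to 939.8) of Ccl5, with exact 95% Poisson intervals that cover counting error only. For Foxp3 they had 3.57 CPM (0.0905 to 19.9), 0 UMIs, and 451 CPM (368 to 546). For a count of 0 the limit used is 3 UMIs, here 17 CPM, and the exact Poisson interval reaches 21 CPM. The fourth, of 19 cells, had 509.9 CPM of Foxp3 and 1453 CPM of Ccl5, so 2 of the 5 clonotypes with 15 or more cells were high in Foxp3 and low in Ccl5. Both had no Sostdc1 or Il21 UMI and had Mki67 at 251 CPM and 363 CPM. The fifth, of 18 cells, had 131 CPM of Il4, 181 CPM of Il21 and 775 CPM of Sostdc1, beside 11702 CPM of Ccl5.

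The largest clonotype of mouse 2, of 59 cells and 3.01% of Vb3 cells there, had 38765 CPM (38128 to 39411) of Ccl5, 6760 CPM of Nkg7, 349 CPM of Cx3cr1 and 341 CPM of Ifng. No Foxp3 UMI was found in it, for which the limit of 3 UMIs is 8.25 CPM and the Poisson interval reaches 10.1 CPM, and Mki67 was at 22 CPM. The second had 22818 CPM of Ccl5, 121 CPM of Il10 and 458 CPM of Mki67. The third had 1157 CPM of Ccl5 and 275 CPM of Nkg7. Its 6 Igfbp4 UMIs were all in 1 of its 16 cells, as were its 7 Ly6c1 UMIs.

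Over all clonotypes of 5 or more cells, 28 of 35 in mouse 1 and 15 of 23 in mouse 2 had no Foxp3 UMI, and 5 in each mouse, with 58 and 44 cells, had more than 200 CPM. In these 5 the median Ccl5 level was 1453 and 826 CPM, and the highest 2671 and 4177, against medians of 9348 and 4003 CPM over all clonotypes of that size. The Ccl5 level of clonotypes ran from 150.1 to 60623 CPM in mouse 1 and from 129 to 47259 CPM in mouse 2. It was above that of the single cells in 22 of 35 and 12 of 23. The 200 CPM limit was set after the levels were seen, and these values are a description.

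**Figure D4:**
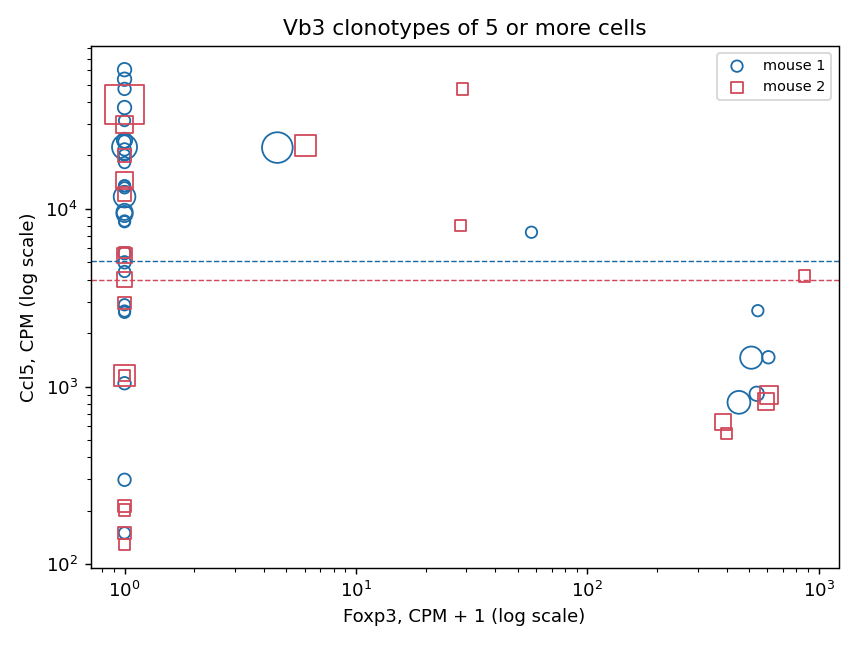
Ccl5 (y axis) against Foxp3 plus 1 (x axis), both in CPM on log scales, for each Vb3 clonotype of 5 or more cells in mouse 1 (blue circles) and mouse 2 (red squares). Symbol area follows the number of cells, dashed lines mark Ccl5 in the single cells of each mouse, and the 10 clonotypes above 200 CPM of Foxp3 lie at or below 4177 CPM of Ccl5.

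The same comparison was made in kept cells of other V segments, and the difference of differences was tested over 8 sums with each mouse and V class as a block (edgeR). Of 12023 genes 697 passed (5.80%), 406 with a higher difference in Vb3 cells (3.38%) and 291 with a lower one (2.42%). Taking 1 cell per clonotype left 88 of 11394 (0.772%, of which 0.456% higher and 0.316% lower). For this the cells were drawn again from all kept cells, so the expanded Vb3 cells were a second draw. In other cells taken alone 21.8% of 12594 genes passed, and 13.5% with 1 cell per clonotype (7.08% higher and 6.41% lower). Over all cells 1360 of these were higher and 1380 lower. Ccl5 differed by 1.21 in Vb3 and 2.78 in other cells, a difference of -1.56 ± 0.12 (SE; adjusted p = 1.78e-05), Nkg7 by 0.95 and 2.11, a difference of -1.15 ± 0.11 (SE; adjusted p = 7.85e-05), and Ifng by 0.36 and 2.07, a difference of -1.70 ± 0.15 (SE; adjusted p = 5.50e-05). Pdcd1 differed by 0.12 and 1.44, a difference of -1.31 ± 0.15 (SE; adjusted p = 2.38e-04). These 4 passed at smaller values with 1 cell per clonotype, -0.50 (adjusted p = 0.00177), -0.42 (adjusted p = 2.61e-04), -0.79 (adjusted p = 0.00407) and -0.73 (adjusted p = 3.92e-05). Of 15 cytotoxic and NK receptor genes 11 had a lower difference in Vb3 cells and none a higher one, and of 15 inhibitory receptor genes 8 had a lower and 1 a higher one. Lower ones numbered 4 of 15 and 3 of 15 with 1 cell per clonotype, and none was higher. The NK receptor genes Klrd1 and Klrc1 were among the 5 lowest, at -2.22 ± 0.41 (SE; adjusted p = 0.00609) and -2.10 ± 0.22 (SE; adjusted p = 1.45e-04). Klrd1 was not called with 1 cell per clonotype, at -1.46 (adjusted p = 0.259), and Klrc1 was, at -3.39 (adjusted p = 0.00277). Klrc1 had few UMIs in expanded Vb3 cells, 21 and 43 over all cells. Of these, 81.0% in mouse 1 were in 1 cell and 62.8% in mouse 2 in 1 clonotype.

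Foxp3 differed by 0.93 in Vb3 and -0.61 in other cells, a difference of 1.55 ± 0.09 (SE; adjusted p = 2.12e-06). With 1 cell per clonotype it differed by 0.67 in Vb3 and 0.13 in other cells, where it was not called (adjusted p = 0.163), and the difference of differences was 0.71 (adjusted p = 0.00685). The 0.67 is from the first draw of Vb3 cells and the 0.71 from the second, so the values do not add up. Of 14 regulatory T cell genes 11 had a higher and 2 a lower difference in Vb3 cells, but 2 and 1 with 1 cell per clonotype. In other cells alone 1 of 14 rose and 10 fell over all cells, whereas 6 rose and none fell with 1 cell per clonotype. Penk differed by 1.70 and -0.50, a difference of 2.21 ± 0.23 (SE; adjusted p = 1.41e-04) over all cells and 1.95 (adjusted p = 0.00167) with 1 cell per clonotype. Naive genes fell less in Vb3 cells, 10 of 14 with a higher difference and none with a lower one, and 5 of 14 with 1 cell per clonotype. Ccr7 differed by -0.74 and -2.43, a difference of 1.70 ± 0.10 (SE; adjusted p = 2.12e-06), and Igfbp4 by -2.58 and -5.25, a difference of 2.64 ± 0.53 (SE; adjusted p = 0.0098). Ccr7 was at 1.64 (adjusted p = 1.50e-07) with 1 cell per clonotype, where it passed, and Igfbp4 did not pass there, at 0.97 (adjusted p = 0.868). The starting level of Igfbp4 was unlike. Its mean over mice was 11.2 CPM in single Vb3 and 281 CPM in single other cells. In expanded cells it was 1.83 CPM for Vb3 and 7.36 CPM for other cells, so a smaller fall did not leave Vb3 cells with more Igfbp4. Of 24 proliferation genes 13 had a higher difference in Vb3 cells and 2 with 1 cell per clonotype, in which comparison 23 of 24 rose in other cells. Ube2c was 1 of the 2, at 1.52 ± 0.10 (SE; adjusted p = 2.36e-06) over all cells and 0.88 (adjusted p = 2.61e-04) with 1 cell per clonotype. Gcg was above 0 over all cells (0.99 ± 0.08 (SE; adjusted p = 4.86e-05)) and below 0 with 1 cell per clonotype, at -0.53 (adjusted p = 0.0353). The increase of Gcg in Vb3 cells given above with 1 cell per clonotype came from the first draw.

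**Figure D5:**
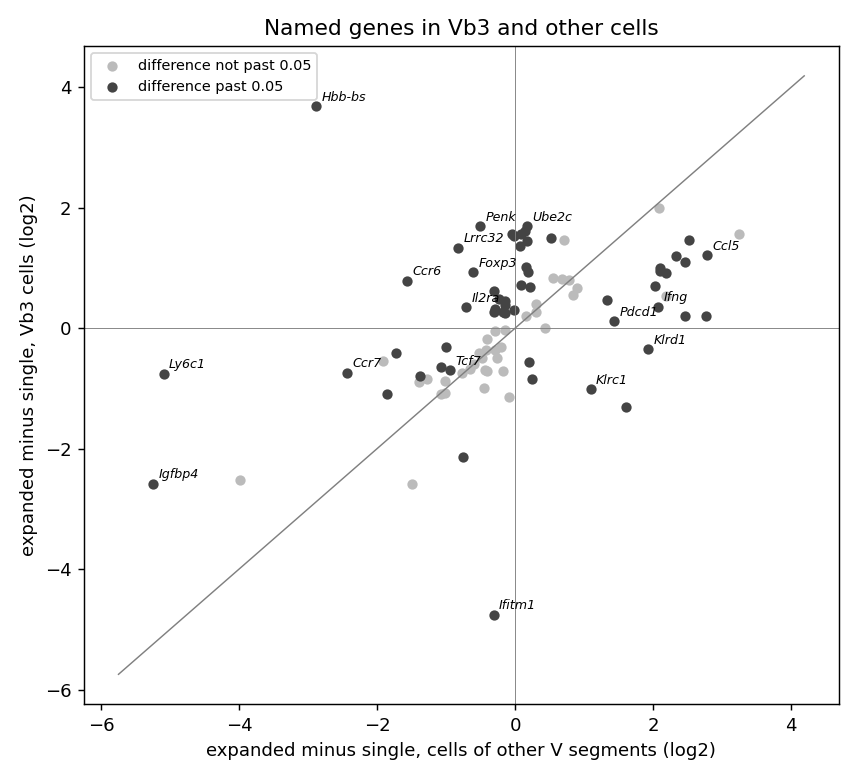
Expanded minus single log2 difference of the named genes in Vb3 cells (y axis) and in cells of other V segments (x axis), with the line of equal differences. Dark points passed the test of the difference over all cells; Foxp3, Penk and Ccr7 lie above the line and Ccl5, Ifng and Pdcd1 below it.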

How the data were processed

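Per the labels' protocols, 10x Genomics 5′ v2 expression and T cell receptor libraries were made from each of 2 hosts, and per the submitters' processing notes Cell Ranger 7.0.1 was run with builds mm10 and GRCm38. The authors deposited UMI counts per gene and cell barcode, and per receptor contig its genes, CDR3 and read and UMI counts. Contigs were joined to cells by barcode within a mouse and filtered as the report states. No doublet caller was run. Cells with 2 TRB chains were left out by the definition, and cells above 15000 UMIs, or with a UMI of another cell type's markers, were left out as alternatives.

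Sums of UMIs over the cells of a class in a mouse were tested with edgeR 4.0.16 (R 4.3.3; TMM factors, filterByExpr, quasi-likelihood test), the mouse as a block because both classes come from the same host. The numbers of the hosts pair the sums for that reason. DESeq2 1.42.0 was an alternative. The 260 receptor V, D and J segment genes were not tested. The procedure was run on simulated counts that had a common small spread, no difference between mice and no clumping of UMIs in cells or clonotypes. Those runs cannot show how it behaves where such clumping is present. Germline ends were taken from GENCODE M21 transcripts (GRCm38). Intervals are exact at 95%.

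Named genes were the 12 largest increases and decreases at 20 CPM or more in a class mean with the same sign in both mice, 34 fixed genes, the 2 smallest p of each list, the 5 largest differences of differences each way, and 15 list members named after their values were seen (Prf1, Eomes, Runx3, Gzmb, Klrk1, Prdm1, Entpd1, Lrrc32, Tnfrsf4, Nrp1, Satb1, Lef1, Dapl1, Bcl6 and Tnf). Members, lists and rules were chosen with earlier results of these data known. List members that did not reach the filter are not in the counts. Some genes that these rules take in are not reported here and are not counted among the named genes.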

Additional observations from a re-analysis of the deposited data

Results flagged for a closer look

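Of 95 named genes with a test of the difference of differences, 57 passed an adjusted p of 0.05 in edgeR, that is, expanded minus single differed between Vb3 and other cells. In 37 of them the difference was higher in Vb3 cells. Cell cycle genes among these were Ube2c (1.52), Plk1 (1.47), Cenpf (1.62), Ckap2l (1.48), Hmmr (1.55), Aurkb (1.27), Hist1h2ak (1.30), Mki67 (0.76) and Top2a (0.87), all on the log2 scale. Genes of regulatory and Th2 lists were Foxp3 (1.55), Il2ra (1.06), Ikzf2 (0.71), Ctla4 (0.57), Lrrc32 (2.16), Tnfrsf4 (0.54), Ccr8 (0.64) and Areg (0.92). Naive and survival genes were Ccr7 (1.70), Igfbp4 (2.64), Ly6c1 (4.31), Pdlim4 (2.67), Il7r (0.59), Tcf7 (0.25), Bcl2 (0.45), Satb1 (1.32) and Lef1 (0.70). Ly6c1 and Pdlim4 were near the detection limit in single Vb3 cells, with means of 2.15 and 1.69 CPM. In single other cells their means were 85.4 and 32.2 CPM. The others were Penk (2.21), Gcg (0.99), St8sia1 (0.77), Cd5 (0.60), Tnfrsf9 (0.48), Nr4a1 (0.62), Ccr6 (2.37), Gbp4 (0.44), Zbp1 (0.40), Ldha (0.31) and Hbb-bs (6.55), the last with 94.0% of its UMIs in the expanded cells of mouse 2 in 1 cell.

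In 20 genes the difference was lower in Vb3 cells. Effector genes were Ccl4 (-1.04), Ccl5 (-1.56), Nkg7 (-1.15), Gzmk (-1.09), Ifng (-1.70), Prf1 (-1.13), Eomes (-1.28), Cx3cr1 (-1.32), Klrk1 (-2.89), Klrd1 (-2.22) and Klrc1 (-2.10). The inhibitory receptors were Pdcd1 (-1.31) and Lag3 (-0.84). The others were Ifitm1 (-4.43), Ifitm2 (-1.37), Chn2 (-1.07), Nrp1 (-0.75), Ier3 (-1.32), Ildr1 (-2.56) and Nrgn (-2.26).

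With 1 cell per clonotype 22 of the 57 passed in the same direction: Penk, Ube2c, Cenpf, Foxp3, Lrrc32, Ccr7, Ccr6, Bcl2, Satb1 and Lef1 above 0, and Ifitm1, Ifitm2, Pdcd1, Ifng, Ccl5, Nkg7, Gzmk, Lag3, Nrgn, Klrc1, Klrk1 and Nrp1 below 0. Gcg passed in the opposite direction, and 34 did not pass, among them Ly6c1 (adjusted p = 0.889), Pdlim4 (0.373), Aurkb (0.906), Ccl4 (0.994), Prf1 (0.649) and Eomes (0.661). Some of the 22 had few UMIs in the expanded Vb3 cells. Over all cells these were 14 and 45 for Ccr6, 21 and 43 for Klrc1 and 4 and 25 for Klrk1. Without the replicate block 47 of the 57 lost their call.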

How the results depend on the processing

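Over all cells 1267 genes were called. The count was 96 without the replicate block, 287 with DESeq2, 95 for pairs against single cells, 646 with cells thinned to 2500 UMIs, 645 without cells above 15000 UMIs and 385 without cells that held a cycling UMI. The other 10 alternatives, among them other scaling factors, filters, a stricter mitochondrial limit and the largest clonotype of each mouse left out, gave counts within 1.5 times of it. With 1 cell per clonotype 229 genes were called, 357 in another draw, 352 without the count filter, 21 with DESeq2 and 7 without the replicate block. Of the 357, 167 were among the 229, and a further draw called 182, of which 126 were among the 229. The values printed with 1 cell per clonotype for expanded against single Vb3 cells rest on the first draw alone. The difference of differences gave 697 genes, 88 with 1 cell per clonotype (1 draw, not repeated), 48 without the replicate block and 200 with DESeq2. The cause was not tested.

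Named genes called in the main fit or in the alternative kept their direction, with a few exceptions. Of genes called in neither, some also changed sign, among them Xcl1, Nrgn, Klrd1 and Klf2. H2-Aa was at -0.056 and Bcl6 at 0.11 in pairs. Ifng was at -0.031 in pairs and -0.054 with 1 cell per clonotype, where Il10 was at -0.049, Egr2 at -0.10 and Nr4a1 at -0.18. Il2ra was at -1.49 without cells holding a Foxp3 UMI, and Hbb-bs at -0.44 in mouse 1 alone and 4.44 in mouse 2 alone. With 1 cell per clonotype the differences of differences of Gcg (-0.53), Ctla4 (-0.18) and Mki67 (-0.093) were below 0. Of 80 named genes called, 54 lost their call without the replicate block, 25 with DESeq2, 46 in pairs, where 3 more turned, and 26 with 1 cell per clonotype, where 4 more turned. Of 57 called differences of differences, 47 lost their call without the replicate block, 18 with DESeq2 and 32 with 1 cell per clonotype, where 3 more turned. The prior degrees of freedom were infinite without the largest clonotypes, when thinned, without the count filter, with a TRA shared or sizes over all barcodes, and in the draw that called 357 genes.

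The mean share of Vb3 cells in expanded clonotypes was 43.0%, 24.8% for clonotypes of 3 or more, 39.7% when a TRA had to be shared and 30.6% at 1000 cells, and it ran from 40.7% to 45.3% with 1 mouse left out. Bases outside the germline ends differed between classes by 0.13 (0.10 to 0.16 in single mice), but by -0.11 for clonotypes of 3 or more. The share of TRBJ2 differed by -2.56 percentage points (-3.03 to -2.10) and by -6.65 for 3 or more. CDR3 length differed by -0.07 to 0.13 bases, and a TRA was shared in 90.9% to 94.1% of clonotypes. The number of hosts, 2, limits every test, and few UMIs limit genes such as Il2 and Ly6c1.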
